A study of Mus musculus with 27 samples.

Results

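The clustered histone genes were followed across mouse stem cells, oocytes and round spermatids that lacked the m6A writer gene Mettl3 or genes of the Ythdf m6A reader family. Members were the genes whose symbol began with Hist1h, Hist2h, Hist3h or Hist4h, whatever their values. They numbered 56 of the 20847 gene symbols in the 4 deposited count tables, with 39 of 14006 symbols in the stem cell table, 39 of 16598 in the table of germinal vesicle (GV) oocytes, 28 of 16304 in the post-GV oocyte table and 28 of 17715 in the spermatid table. By histone type they were 6 H1, 14 H2A, 17 H2B, 8 H3 and 11 H4 genes. A total of 46 lay on mouse chromosome 13, between positions 21715763 and 23934851 of GRCm38, 6 on chromosome 3, 3 on chromosome 11 and 1 on chromosome 6. A gene was listed in a table only if at least 1 library of it held 6 or more counts, and 10 members were listed in all 4 tables.

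The stem cells were the KH2 line, a hybrid of the C57BL/6 and 129/Sv backgrounds, as wild type (WT), Ythdf1-/-, Ythdf2-/-, Ythdf3-/-, Ythdf1-/-Ythdf2-/-Ythdf3-/- (the triple knockout) and Mettl3-/- cells, with 2 libraries of each genotype, A and B, made from poly(A) RNA. GV oocytes came from Mettl3f/f mice that carried the oocyte-expressed Zp3-Cre transgene (conditional knockout, 3 libraries) or did not (control, 4 libraries), on a mixed BDF1 and C57BL/6 background with the Cre strain. The oocytes of each mouse were pooled, and the libraries were made by SMART-seq2, which primes on poly(A). Control and knockout GV oocytes both carried the floxed Mettl3 alleles and differed by the Cre. Post-GV oocytes, on a CB6F1 and C57BL/6 background, were Ythdf2-/- (2 libraries) or Ythdf2+/- (3 libraries), also by SMART-seq2. Round spermatids, sorted by flow cytometry, were Ythdf2-/- (2 libraries) or Ythdf2+/+ (1 library), and their libraries were made after ribosomal RNA removal with Ribo-Zero rather than by poly(A) selection. Ages were not given in the labels used here.

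Clustered histone genes supply most of the core histones and linker histones that package newly made DNA, and their mRNAs accumulate during S phase. Most lack introns, and their mRNAs end in a conserved stem-loop bound by the stem-loop binding protein Slbp instead of in a poly(A) tail, after cleavage that is guided by the U7 small nuclear ribonucleoprotein. A minority of the transcripts run past the stem-loop or are spliced to another 3' end and are polyadenylated, which is known from differentiated and non-dividing cells. Mettl3 is the catalytic subunit of the complex that writes m6A on mRNA, and Ythdf1, Ythdf2 and Ythdf3 are cytoplasmic proteins that bind it. Poly(A) selection and oligo-dT priming are designed to recover tailed RNA, and ribosomal RNA removal is not limited to it. Which transcripts the counts come from was not tested, and values of experiments made by different protocols stand side by side with no comparison between them.

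The GENCODE M21 transcripts (GRCm38) were searched on the RNA strand for the 16-base form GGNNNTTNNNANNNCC with both stem arms of 6 bases perfectly paired. In coding members a match counted only within the 3' untranslated region, whereas in other genes the whole transcript was searched. A match was present in 37 of the 56 members, and in 98 of 21810 other protein-coding genes (0.449%), by these unlike searches. In member models with little or no 3' untranslated region a match could be missed. The following sequences are those of members with a match that were called in the comparisons described further on, leaving out Hist1h4n and Hist1h2be. Each is given with 7 flanking bases on each side and the stem-loop in capitals.
Hist1h2bg: acccaaaGGCTCTTTTCAGAGCCacccata
Hist1h4d: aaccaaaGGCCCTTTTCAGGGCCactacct
Hist1h1d: ctcaaacGGCTCTTTTCAGAGCCacccaca
Hist1h2bb: acccaaaGGCTCTTTTAAGAGCCacccaca
Hist1h4i: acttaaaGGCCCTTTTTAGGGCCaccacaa
Hist1h1c: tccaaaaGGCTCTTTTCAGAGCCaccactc
Hist1h1e: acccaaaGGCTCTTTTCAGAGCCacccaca
Hist1h2ae: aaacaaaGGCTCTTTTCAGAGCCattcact
Hist3h2a: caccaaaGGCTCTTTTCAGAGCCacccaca
The form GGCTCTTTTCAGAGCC was found in 19 members, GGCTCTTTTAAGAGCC in 6 and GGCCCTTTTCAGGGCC in 6. The H4 genes Hist1h4d and Hist1h4i carry stems that open with GGCCC, and the other 7 members printed here carry stems that open with GGCTC. Hist1h2bc, the most abundant member in GV oocytes, has no match. Its transcript is spliced after the stop codon from position 23684621 of chromosome 13 to position 23692176, across an intron of 7554 bases, and the junction reads as follows, with the downstream exon in capitals.
Hist1h2bc: aagtgatcctgccaaGAGGAGCAGACCTGA

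Annotated 3' ends fell into groups. The model of 20 members ran at least 100 bases past the stem-loop, that of 16 ended near it, 17 had a 3' untranslated region under 100 bases without a stem-loop in the model, 2 had a longer end without one (Hist1h2bp and Hist2h2be) and 1, Hist1h2bc, was spliced. Hist1h2bp also has an annotated transcript that holds a stem-loop. The members whose end runs past the stem-loop, is longer without one or is spliced, 23 in all, are called long-ended here. Nearly identical coding sequences limit the values of single genes: 22 members shared at least 50% of their 50-base windows with other genes. The share was 49.7% for Hist1h2bg, 10.2% for Hist1h4d, 2.25% for Hist1h1d, 8.54% for Hist1h1c and 30.1% for Hist1h2bc, but 79.7% for Hist1h2af and 85.6% for Hist1h4n, whose values are uncertain. In addition, 19 members overlap another gene, 17 of them on the opposite strand and 5 on the same strand. Whether the counting used strand is not given in the sources used here.

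Stem cell libraries held 612598 to 1111764 assigned counts, those of GV oocytes 6484397 to 18181397, those of post-GV oocytes 12409822 to 25015081, and the depth of spermatid libraries was 18843689 to 32759740. In all 6 stem cell genotypes, libraries A and B differed by less than the sampling noise of their counts (chi-square per gene 0.675 to 0.833, against 29.0 to 162 between GV libraries of a group). Each stem cell pair was therefore read as 1 sample, and its standard errors are counting errors only. The tests still entered A and B as replicates, so their p-values rest on a spread under sampling noise and can be too small. They compare those libraries, not the conditions. Mettl3 itself was lower in the Mettl3 knockout stem cells (16.6 against 139 CPM, counts scaled to a common library size; log2 fold change -3.07, adjusted p = 1.03e-23, edgeR's quasi-likelihood test) and in the conditional knockout GV oocytes (1.91 against 27.2; -3.77, adjusted p = 0.00182). No Ythdf gene was called lower in the libraries labelled as its knockout, so that mRNA level gives no check of those labels and the genotypes given here are those of the labels. All 5 stem cell markers, all 7 oocyte markers and all 8 round spermatid markers examined had counts in every library of their experiment, while summed feeder fibroblast markers, of which 3 of 6 were listed, lay between 31 and 86.2 CPM in the stem cell libraries. Whether the replicate libraries came from separate cultures was not given for the stem cells.

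As a share of all assigned counts, the clustered histone genes were a small part of every library. The share was 0.109% in WT library A (95% exact binomial interval 0.103 to 0.116) and 0.118% in WT library B (0.112 to 0.124). Both intervals cover counting error only. It was 0.114% and 0.122% in Ythdf1-/-, 0.107% and 0.118% in Ythdf2-/-, 0.117% and 0.120% in Ythdf3-/-, and 0.119% and 0.120% in triple knockout cells. The Mettl3-/- libraries stood above the other 10, at 0.144% and 0.156%, or 1.32 times the WT share. Much of this rise lay in Hist1h2bg (146 CPM on average in WT and 302 in Mettl3-/-) and Hist1h4d (94.9 and 179). The log2 ratio of the share was 0.40, where the median log2 fold change over the tested members was 0.15. The share without these genes was not computed.

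In GV oocytes the share was 0.0461%, 0.0492% and 0.0381% in the 3 conditional knockout libraries and 0.0290%, 0.0248%, 0.0243% and 0.0253% in the 4 controls. The groups did not overlap, and their means were 0.0445% ± 0.00573 (SD, n = 3) and 0.0259% ± 0.00210 (SD, n = 4), a ratio of 1.72. Most of this was 1 gene: without Hist1h2bc the shares were 0.00558%, 0.00804% and 0.00999% in the knockouts and 0.00685%, 0.00893%, 0.0123% and 0.00561% in the controls, which overlapped. Post-GV oocytes had 0.00677% and 0.00319% in the Ythdf2-/- libraries beside 0.00699%, 0.00866% and 0.00498% in the Ythdf2+/- libraries, a log2 ratio of -0.47 that was -1.11 without Ythdf2-/- library 1 and -0.02 without Ythdf2-/- library 2. In spermatids the share was 0.0113% and 0.0121% in the Ythdf2-/- libraries and 0.0108% in the single Ythdf2+/+ library. In bulk samples, fewer cells with a transcript and less of it per cell cannot be told apart.

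**Figure D1:**
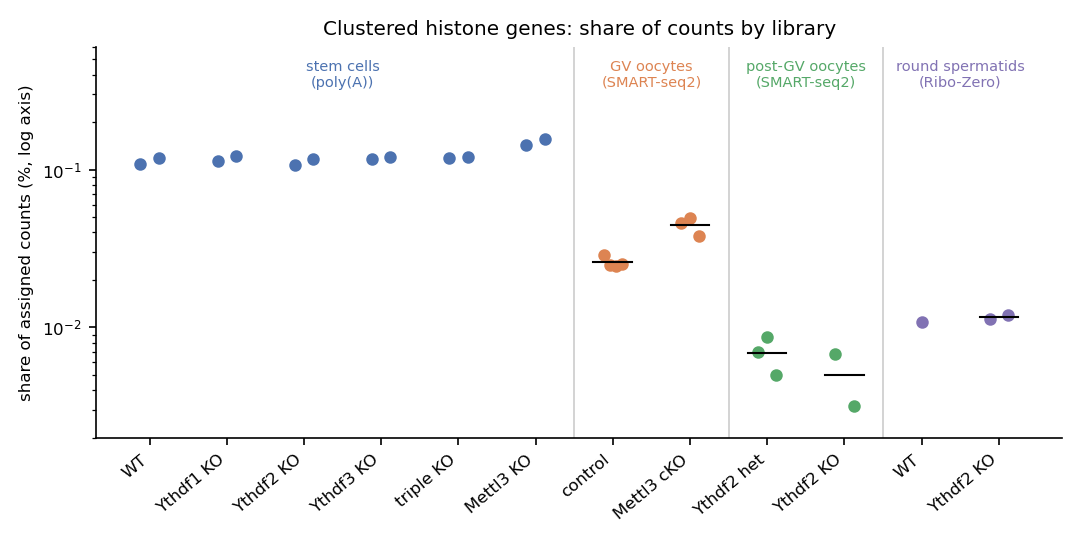
Share of all assigned counts taken by the clustered histone genes, in percent on a log axis, in each library of the 4 experiments; points are libraries and lines are means of groups with replicates, not drawn for stem cells. The Mettl3 knockout libraries, at 0.144% and 0.156% in stem cells and 0.0381% to 0.0492% in GV oocytes, lie above all other libraries of their experiment.

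The leading members of each experiment were ranked. Levels per kilobase of exon (mean CPM per kb over the libraries of an experiment) ranked Hist1h2bg, an H2B gene, first in stem cells at 337, followed by the H2A gene Hist1h2af at 209, Hist2h2bb at 123, the H4 gene Hist1h4d at 117, Hist1h2bb at 86.1 and Hist1h2ak at 78.6. In GV oocytes the H2B gene Hist1h2bc led at 222, ahead of Hist1h2aa at 29.7, the linker histone gene Hist1h1a at 11.9, Hist1h4d at 10.2, Hist1h2ae at 9.53 and Hist1h1b at 6.86. Hist1h2bc at 17.7 and Hist1h2aa at 17.5 led in post-GV oocytes, with Hist1h1a at 13.4, Hist3h2ba at 3.78, Hist1h4d at 2.17 and Hist1h1c at 2.13. Spermatids were led by the H2B gene Hist1h2bp at 65.2, followed by the germ cell H2B gene Hist1h2ba at 19.2, Hist1h4a at 14.0 and Hist1h1t, the testis-specific linker histone gene, at 11, with Hist1h2aa at 5.91 and Hist2h2be at 5.31. Hist1h1t was listed in the spermatid table alone, and Hist1h2aa and Hist1h2ba, both known from the germ line, were listed in all tables but that of stem cells. The 6 leading members of each experiment held 37.2% to 50.1% of the member counts of stem cells. The values were 74.6% to 78.4% for spermatids, 85% to 92.2% for GV oocytes and 68.5% to 81.6% after the GV stage.

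In stem cells H2B genes held 36.5% to 42.0% of the member counts, H1 genes 23.1% to 27.1%, H4 genes 19% to 22.8%, H2A genes 11.4% to 17.6% and H3 genes 1.01% to 3.00%. In GV oocytes Hist1h2bc by itself held 73.8% to 87.9% of the member counts in the knockouts and 49.4% to 77.9% in the controls. Long-ended members held 54.3% to 63.4% of the member counts of stem cells, 77.4% to 82.0% of those of spermatids and, in oocytes, 79.9% to 95.3% (GV) and 41.9% to 78.9% (post-GV). Most of the GV value was Hist1h2bc. Without this gene, long-ended members held 43.4% to 60.8% of the remaining member counts at the GV stage and 28.5% to 54.0% after it. Stem cells (52.3% to 62.2%) and spermatids (77.2% to 81.0%) changed little when it was left out. In spermatids Hist1h2bp, which also has an annotated transcript with a stem-loop, held 33.8% to 46.4% of the member counts by itself. All of these are shares of counts and so rise with transcript length.

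**Figure D2:**
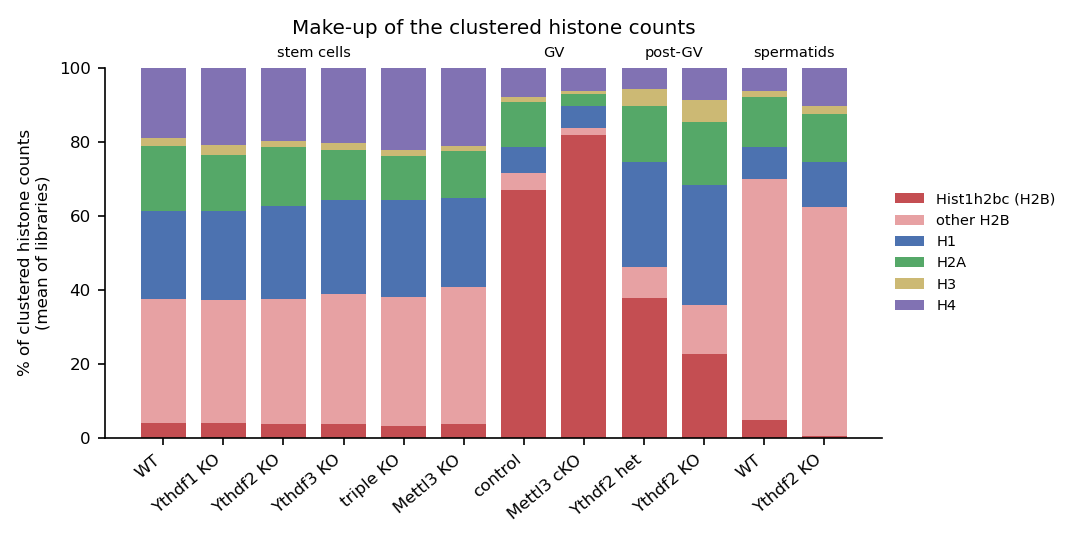
Percent of the clustered histone counts held by the H1, H2A, H2B, H3 and H4 genes, as the mean over the libraries of each group, with Hist1h2bc drawn apart from the other H2B genes. H2B genes including Hist1h2bc take the largest part in stem cells (36.5% to 42.0% in single libraries), and Hist1h2bc takes most of the GV oocyte bars (49.4% to 87.9% in single libraries).

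For each comparison, a gene was called where edgeR's quasi-likelihood test gave a Benjamini-Hochberg adjusted p under 0.05 over all genes tested; CPM use TMM-normalised library sizes. The 5 stem cell comparisons share the WT libraries, so that a low or high WT value enters all of them. The filter on low counts left 8 listed members untested in stem cells, 18 in GV oocytes, 13 in post-GV oocytes and 8 in spermatids; none of them had more than 50 counts in a library. In stem cells 31 of the 39 listed members were tested.

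In Ythdf1-/- cells none of the 31 members was called, where 3.45% of all tested genes were called in either direction. 7 members had an unadjusted p under 0.05, as had 14.9% of all tested genes, and DESeq2 called none of them. Without WT library B, or without Ythdf1-/- library A, 1 member was called higher. In Ythdf2-/- cells none was called either (1.91% of all genes), with 2 members and 11.8% of all tested genes at an unadjusted p under 0.05 and none called by DESeq2. Without WT library B 1 member was called lower. In Ythdf3-/- cells 2 of 31 members were higher, 6.45% of those tested, where 1.74% of all genes were called higher. These were Hist1h2bg and Hist1h4d. The median log2 fold change over the tested members was -0.02 in Ythdf1-/-, -0.05 in Ythdf2-/- and -0.06 in Ythdf3-/- cells, where that over all tested genes was 0.00 in each.

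Hist1h2bg (chr13:23571396-23572013, plus strand), which encodes an H2B protein, was at 124 and 168 CPM in the WT libraries. It was at 158 and 206 in Ythdf1-/-, 156 and 173 in Ythdf2-/-, 228 and 218 in Ythdf3-/-, 251 and 214 in triple knockout and 289 and 314 in Mettl3-/- libraries. The Ythdf3-/-, triple knockout and Mettl3-/- libraries all lay above both WT libraries, while those of Ythdf1-/- and Ythdf2-/- overlapped WT. Of all 11951 tested genes, 6116 did not overlap between Ythdf3-/- and WT, 8065 between triple knockout and WT, and 8059 between Mettl3-/- and WT libraries. The log2 fold changes were 0.31 ± 0.12 (SE) in Ythdf1-/- (adjusted p = 0.167, edgeR), 0.17 ± 0.12 in Ythdf2-/- (0.654), 0.60 ± 0.12 in Ythdf3-/- (0.00261), 0.66 ± 0.12 in triple knockout (6.74e-05) and 1.05 ± 0.11 in Mettl3-/- cells (1.57e-09).

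Hist1h4d (chr13:23581598-23582735, plus strand), an H4 gene in the same stretch of the cluster. It was at 88.3 and 102 CPM in WT, 106 and 130 in Ythdf1-/-, 107 and 114 in Ythdf2-/-, 149 and 150 in Ythdf3-/-, 158 and 131 in triple knockout and 184 and 173 in Mettl3-/- libraries. All 10 knockout libraries were above both WT libraries. The log2 fold change was 0.65 ± 0.14 (SE) in Ythdf3-/- (adjusted p = 7.25e-04, edgeR), 0.60 ± 0.14 in triple knockout (4.08e-04) and 0.90 ± 0.13 in Mettl3-/- cells (5.12e-10), and those in Ythdf1-/- (0.31 ± 0.14, adjusted p = 0.252) and Ythdf2-/- cells (0.22 ± 0.15, adjusted p = 0.602) were not called. DESeq2 called neither gene in the Ythdf3-/- cells, and the number of members called higher there was 0 without WT library A or Ythdf3-/- library B and 1 without Ythdf3-/- library A.

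In triple knockout cells 3 of 31 members were higher (9.68%) and 2 were lower (6.45%), where 13.3% of all tested genes were called higher and 11.8% lower. Besides Hist1h2bg and Hist1h4d, the H4 gene Hist1h4i was higher. Hist1h4i was at 23.4 and 32.1 CPM in WT and at 59.3 and 53.4 in triple knockout libraries, with a log2 fold change of 1.01 ± 0.25 (SE; adjusted p = 4.40e-04, edgeR). The triple knockout libraries were the highest of the 12 for this gene. The Ythdf1-/- (36.7 and 45.9) and Mettl3-/- libraries (37.8 and 42.2) also lay above both WT libraries, and the gene was not called in those genotypes. The Ythdf2-/- (22.0 and 27.9) and Ythdf3-/- libraries (20.1 and 31.9) lay in or just under the WT range.

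Both lower members carry a limit in their counting. Hist1h2be is an H2B gene whose span overlaps that of the linker histone gene Hist1h1e by 496 bases on the same strand. It was at 25.2 and 13.4 CPM in WT and 3.12 and 8.21 in triple knockout libraries (log2 fold change -1.70 ± 0.56 (SE), adjusted p = 0.00361, edgeR). Its 2 WT libraries differed widely, and all 8 Ythdf-mutant libraries were under the lower of them. Hist1h2af, whose sequence is largely shared with other H2A genes, was at 95.5 and 98.1 in WT and 68.6 and 57.5 in triple knockout libraries (-0.63 ± 0.18, adjusted p = 0.00371). The median log2 fold change over the tested members was -0.07, and 0.00 over all tested genes. DESeq2 called 1 of the members higher and none lower, and edgeR's test called 1 lower without WT library A or without either triple knockout library.

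The Mettl3-/- libraries held the most called members of the stem cell comparisons: 9 of 31 were higher (29.0%) and 1 was lower (3.23%), where 15.2% of all tested genes were called higher and 15.1% lower. The log2 fold change was positive for 20 of the 31, with a median of 0.15 over the members and 0.00 over all tested genes. The Mettl3-/- group had the highest mean level of the 6 genotypes for 16 of the 31 members, which was so for 28.1% of all tested genes. By type, 3 of 5 tested H1 genes, 3 of 12 H2B genes, 2 of 8 H4 genes and 1 of 5 H2A genes were higher, and the single H3 gene tested was not called. Of the 13 long-ended members tested 3 were higher and 1 lower, and of the 18 others 6 were higher. The number called higher depended on single libraries: it fell when any 1 of the 4 was left out, as did that over all tested genes. Without Mettl3-/- library B the part of the members called higher was no larger than that of all tested genes. DESeq2 called 2 of 39 members higher, and 558 of 14006 genes. The member called lower was not called when any 1 of the 4 libraries was left out.

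Linker histone genes were among them. Hist1h1d, which encodes an H1 linker histone (chr13:23553262-23560686, plus strand), was at 65.8 and 71.3 CPM in WT and 110 and 107 in Mettl3-/- libraries, with a log2 fold change of 0.66 ± 0.16 (SE; adjusted p = 5.24e-04, edgeR). Hist1h1a was at 49.5 and 48.1 in WT and 69.0 and 70.3 in Mettl3-/- libraries (0.51 ± 0.20, adjusted p = 0.0362). Hist1h1b was at 45 and 57.1 in WT and 70.6 and 71.5 in Mettl3-/- libraries (0.48 ± 0.20), with an adjusted p just under the threshold of 0.05. For each of these genes both Mettl3-/- libraries were above both WT libraries. Such separation was common: the groups did not overlap for 16 of the 31 tested members and for 8059 of all 11951 tested genes. DESeq2 called none of them (adjusted p = 0.0869 for Hist1h1d, 0.336 for Hist1h1a and 0.380 for Hist1h1b). The calls of Hist1h1a and Hist1h1b were lost in most of the fits that left out 1 library. Hist1h1c (log2 fold change 0.06) and Hist1h1e (0.42, adjusted p = 0.116, edgeR), the other H1 genes tested, were not called.

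Among the core histone genes, Hist1h2bg and Hist1h4d had the values given above. The H2B gene Hist1h2bb was at 29.7 and 37.5 in WT and 54.2 and 66.8 in Mettl3-/- libraries (log2 fold change 0.87 ± 0.23 (SE), adjusted p = 8.11e-04, edgeR). Hist2h2bb, an H2B gene on chromosome 3, was at 39.6 and 41.0 against 55.9 and 66.8 (0.62 ± 0.21, adjusted p = 0.0159). None of the WT libraries reached a Mettl3-/- library for either gene.
The H2A gene Hist1h2ak was at 26.1 and 27.6 in WT and 42.7 and 48.0 in Mettl3-/- libraries (0.77 ± 0.26, adjusted p = 0.0126). Hist1h4n, an H4 gene, was at 6.31 and 4.46 against 16.4 and 14.1 (1.46 ± 0.52, adjusted p = 0.0141), from 5 to 12 counts in a library. Hist2h2bb, Hist1h2ak and Hist1h4n each share more than 50% of their sequence windows with other genes. In addition, Hist2h2bb lies wholly within the span of the noncoding gene Gm42743 on the same strand. The member called lower was Hist3h2a, an H2A gene on chromosome 11 that lies wholly within the span of Trim17 on the same strand: it was at 31.5 and 30.3 in WT and 18.1 and 17.6 in Mettl3-/- libraries (-0.79 ± 0.33, adjusted p = 0.0432). Hist1h2bc, with its spliced end, was at 44.1 and 44.6 in WT and 49.3 and 59.8 in Mettl3-/- libraries and was not called.

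**Figure D3:**
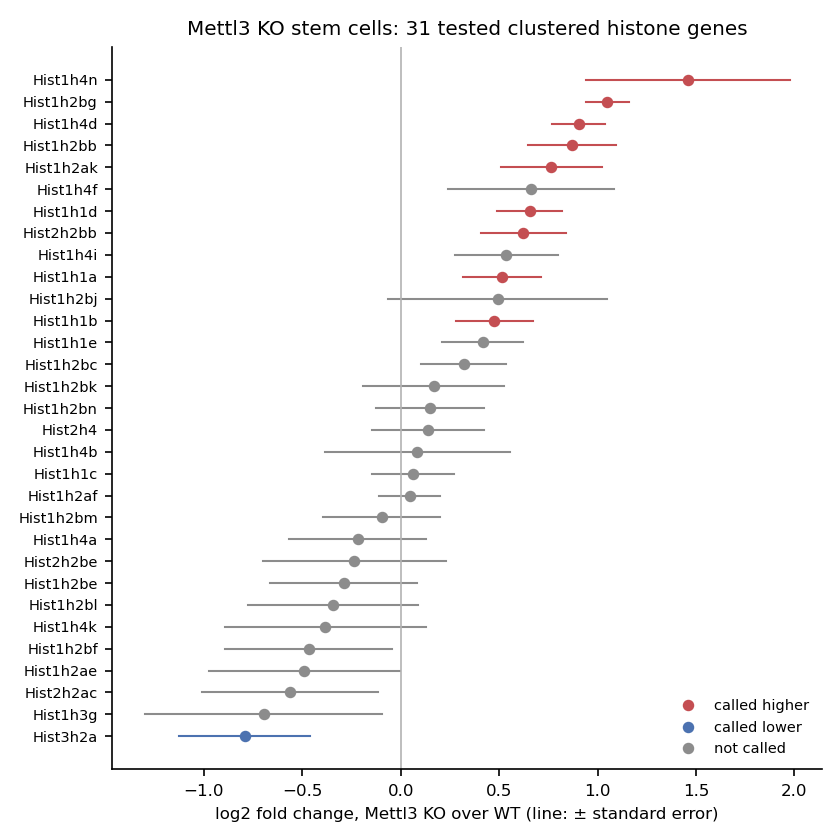
Log2 fold change of each of the 31 tested clustered histone genes between Mettl3-/- and WT stem cell libraries, in order of size; lines are standard errors, which here are counting errors, red points were called higher and the blue point lower by edgeR's quasi-likelihood test. Hist1h4n (1.46) and Hist1h2bg (1.05) lie farthest to the right of the 9 members called higher, and Hist3h2a (-0.79) is the member called lower.

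Genes that act on clustered histone mRNAs or with their proteins were taken as lists of known factors. Of 18 tested histone mRNA processing factors, none was called in the 3 single Ythdf knockouts, 2 were higher in the triple knockout, and 3 were higher and 1 lower in Mettl3-/- cells. Of all tested genes 13.3% were called higher and 11.8% lower in the triple knockout and 15.2% higher and 15.1% lower in Mettl3-/- cells, which is the background for this list and the 3 that follow. Lsm10, a U7-specific Sm-like protein, was higher in the last pair, at 34.9 CPM on average in WT, 69.8 in triple knockout (log2 fold change 0.97 ± 0.22 (SE), adjusted p = 1.55e-04, edgeR) and 84.2 in Mettl3-/- libraries (1.25 ± 0.21, adjusted p = 2.28e-07). Ncbp1, a subunit of the cap-binding complex, was the other one in the triple knockout (0.32). In Mettl3-/- cells Coil, the scaffold of Cajal bodies, was higher (0.36, adjusted p = 0.0413, edgeR), as was Mif4gd, a translation partner of Slbp (0.37, adjusted p = 0.00597), and Srrt, a cap-associated factor, was lower (-0.35, adjusted p = 0.0177). Slbp was at 112 CPM in WT and 117 in Mettl3-/- libraries (log2 fold change 0.04, adjusted p = 0.871, edgeR), and it was not called in any stem cell comparison. Lsm11, the other U7-specific Sm-like protein, was not called either (log2 fold changes from -0.84 in the triple knockout to -0.18 in Ythdf3-/- cells), and Npat, the cyclin E target that drives histone gene transcription, had too few counts to be tested.

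Solitary histone genes, which lie outside the clusters and encode replacement histones, moved both ways in Mettl3-/- cells, with 2 of 11 tested higher and 4 lower. H1fx was higher (0.82 ± 0.16 (SE), adjusted p = 2.50e-06, edgeR), and H2afx (-0.61 ± 0.11, adjusted p = 4.36e-07) and H2afj (-1.27 ± 0.27, adjusted p = 6.04e-06) were lower. Chaf1b, a subunit of the CAF-1 histone chaperone, was higher in all 5 stem cell comparisons, which share the WT libraries, by 0.33 in Ythdf1-/-, 0.38 in Ythdf2-/-, 0.45 in Ythdf3-/-, 0.64 in triple knockout and 0.55 in Mettl3-/- cells. Of 24 tested DNA replication genes none was called in the single Ythdf knockouts, 3 were higher and 2 lower in the triple knockout, and 4 were higher and 1 lower in Mettl3-/- cells. Fen1, the flap endonuclease of lagging strand synthesis, was higher in the last pair, by 0.41 and 0.54 on the log2 scale. Of 13 histone chaperone genes 4 were higher in the triple knockout, led by Npm2, an oocyte chaperone of the nucleoplasmin family, at 2.86 (adjusted p = 1.41e-05, edgeR), and 3 were higher and 1 lower in Mettl3-/- cells, with Daxx, a chaperone of the variant H3.3, at 0.35 and its partner gene Atrx at -0.38.

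In GV oocytes 21 of the 39 listed members were tested. Of these 3 were higher in the Mettl3 conditional knockout (14.3%) and 2 lower (9.52%), where 15.4% of all tested genes were called higher and 13.4% lower. The median log2 fold change was -0.28 over the members and 0.04 over all tested genes. Groups did not overlap for 6 of the 21 tested members and for 5327 of all 13551 tested genes.

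The H2B gene Hist1h2bc (chr13:23684199-23692908, plus strand), which has the spliced 3' end shown above, was at 412, 407 and 274 CPM in the 3 knockout libraries and 232, 163, 120 and 190 in the 4 controls. All knockout libraries were above all controls. The means were 364 ± 78.3 (SD, n = 3) and 176 ± 47.3 (SD, n = 4), and the log2 fold change was 1.05 ± 0.26 (SE; adjusted p = 0.0145, edgeR). Hist1h1c (chr13:23738808-23740367, plus strand), an H1 gene, was at 5.70, 3.47 and 2.85 in the knockouts and 0.555, 0.734, 1.15 and 0.561 in the controls, from 19 to 102 counts against 6 to 11, with a log2 fold change of 2.42 ± 0.51 (adjusted p = 0.00749). Hist1h1e (chr13:23620629-23622558, minus strand), also an H1 gene, was at 5.70, 4.57 and 9.16 against 0.764, 1.96, 3.57 and 1.03 (1.82 ± 0.58, adjusted p = 0.0400). Neither overlapped between the groups. The Hist1h1c call was kept in all 12 alternatives run, and the Hist1h1e call in 6 of 12 and in 1 of the 7 fits that left out 1 library. Hist1h1e also overlaps Hist1h2be by 496 bases on the same strand. In conditional knockout oocytes the solitary linker histone genes H1f0 and H1fx were higher as well, H1f0 at 153 ± 3.03 (SD, n = 3) against 45.8 ± 4.44 (SD, n = 4) CPM (log2 fold change 1.74 ± 0.18 (SE), adjusted p = 3.89e-04, edgeR) and H1fx at 8.91 ± 7.43 against 1.16 ± 1.11 (2.92 ± 0.78, adjusted p = 0.0207). Of 12 solitary histone genes tested these 2 were called.

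The lower members rested on 2 control libraries. Hist1h1b, an H1 gene, was at 0.280, 1.16 and 0.300 CPM in the knockouts and 0.625, 10.4, 20.9 and 2.06 in the controls (log2 fold change -3.79 ± 1.17 (SE), adjusted p = 0.0370, edgeR). Hist1h2ae, an H2A gene, was at 0.00, 0.900 and 0.751 in the knockouts and 0.417, 12.4, 29.8 and 2.71 in the controls (-4.42 ± 1.46, adjusted p = 0.0469). For both genes the groups overlapped and controls 2 and 3 held the high values. The summed level of 7 granulosa and cumulus cell markers, the follicle cells that surround an oocyte, was 9.84, 153 and 22.2 CPM in the knockouts, where 1 of the markers was at 0 in the first library, and 234, 584, 1395 and 235 in the controls, so that it was highest in the same 2 controls. Of the 6 markers tested 5 were lower in the knockouts. Without controls 2 and 3 neither Hist1h1b (adjusted p = 0.357) nor Hist1h2ae (0.365) was called.

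The same controls entered other members. Hist1h4d was at 7.15, 12.3 and 23.1 in the knockouts and 1.32, 9.42, 24.7 and 2.99 in the controls and was not called (log2 fold change 0.56, adjusted p = 0.639, edgeR), whereas without controls 2 and 3 it was called higher (2.59, adjusted p = 0.0196). Hist1h2bc without these controls kept its direction at a log2 fold change of 0.67 with an adjusted p of 0.0947 in edgeR's test. The part of the follicle cell RNA in these results was not tested further. Hist1h2aa, the germ line H2A gene, was at 7.99, 15.0 and 5.56 in the knockouts and 20, 13, 5.98 and 13.6 in the controls, which overlapped (-0.46, adjusted p = 0.493), and the germ line H2B gene Hist1h2ba was not called (0.15, adjusted p = 0.891). The number of members called higher was 1 without knockout library 1 or without knockout library 2, and the number called lower was 0 without any 1 of the knockout libraries or control 2, and 1 without control 3.

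**Figure D4:**
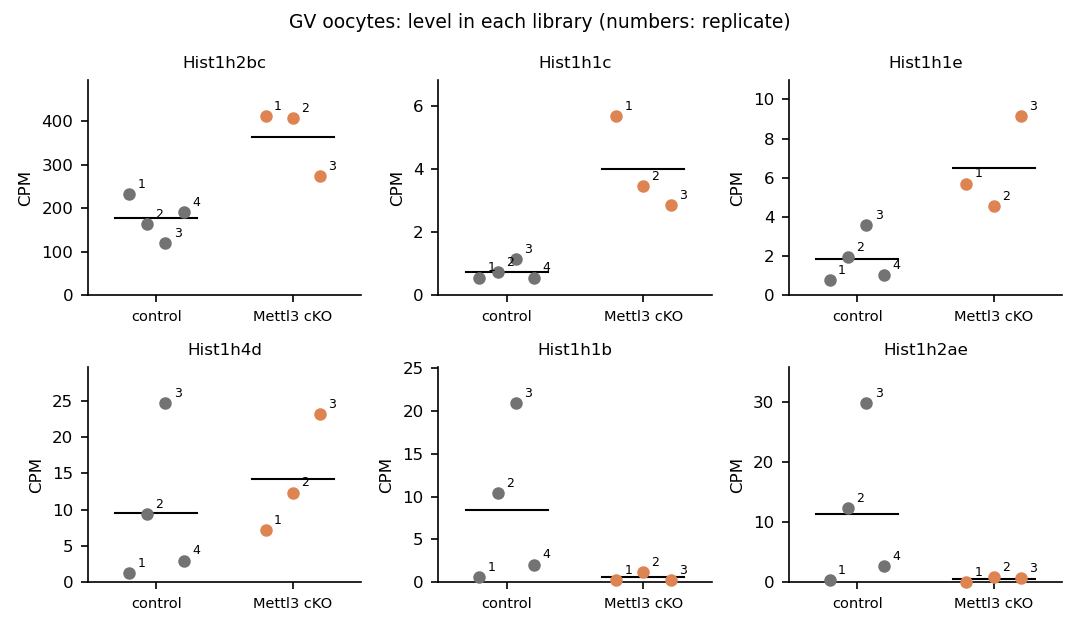
Level (CPM) of clustered histone genes in the GV oocyte libraries, 1 panel per gene, each with its own axis; points are libraries and lines are group means. Hist1h2bc, Hist1h1c and Hist1h1e do not overlap between the groups, while for Hist1h1b and Hist1h2ae controls 2 and 3 lie above all other libraries.

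Of 20 tested histone mRNA processing factors 3 were higher and 1 lower in the conditional knockout GV oocytes, where 15.4% of all tested genes were called higher and 13.4% lower, which is also the background of the lists that follow. Coil was at 42.7 ± 15.7 (SD, n = 3) against 8.92 ± 2.14 (SD, n = 4) CPM (log2 fold change 2.26 ± 0.33 (SE), adjusted p = 0.00163, edgeR), Srrt was higher by 1.34 (adjusted p = 0.00898) and Lsm1, a subunit of the ring that starts histone mRNA decay, by 1.13 (adjusted p = 0.0142). Casp8ap2, a component of the histone locus body, was at 96.1 ± 31.5 against 296 ± 36.2 (-1.63 ± 0.25, adjusted p = 0.00194). Slbp was at 555 ± 335 in the knockouts and 1382 ± 473 in the controls, with no overlap between libraries, and did not pass the test (-1.31 ± 0.49, adjusted p = 0.0673). Npat (0.51, adjusted p = 0.178) and Lsm11 (-0.18, adjusted p = 0.689) were not called. Of 24 DNA replication genes 6 were higher and 2 lower, among them Ccne1, the S phase cyclin E1, at a log2 fold change of 2.44 ± 0.28 (adjusted p = 6.13e-04), and Fen1 at 1.77 ± 0.25 (adjusted p = 0.00145). Of 13 histone chaperone genes Daxx was higher (1.27) and Atrx lower (-1.28).

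In post-GV oocytes none of 15 tested members was called between Ythdf2-/- and Ythdf2+/- libraries, and none of all tested genes was (0% called). Tested members ranged from -1.23 for Hist1h1c to 1.47 for Hist2h2bb in log2 fold change. None of the members had an unadjusted p under 0.05, which 782 of all tested genes (5.62%) had, and DESeq2 called no member. The median log2 fold change was -0.38 over the members and -0.09 over all tested genes. Hist1h2bc was at 20.8 and 4.65 CPM in the Ythdf2-/- libraries and 26.1, 39.6 and 11.2 in the Ythdf2+/- libraries, which overlapped (log2 fold change -1.01 ± 0.83 (SE), adjusted p = 0.848, edgeR).

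The libraries fell into sets that an adjustment by the authors had shifted in opposite directions: Ythdf2-/- library 1 with Ythdf2+/- libraries 1 and 2, and Ythdf2-/- library 2 with Ythdf2+/- library 3. In both sets Hist1h2bc was lower in value in the Ythdf2-/- library, at 20.8 beside 26.1 and 39.6 in the first and at 4.65 beside 11.2 in the second. The share of all members was lower there too, but in the first set the counting intervals of Ythdf2-/- library 1 and Ythdf2+/- library 1 overlapped. Without Hist1h2bc the share in the first set was higher in the Ythdf2-/- library, at 0.00456% beside 0.00414% and 0.00398%. In the second set it stayed lower, at 0.00278% beside 0.00404%. With the set as a term the log2 fold change of Hist1h2bc was -0.91 (adjusted p = 0.321, edgeR), and no member was called, where 1.85% of all tested genes were called in either direction. The H1 gene Hist1h1c was at 3.41 beside 5.39 and 6.61 in the first set and at 0.233 beside 0.967 in the second. The summed granulosa and cumulus markers ran 102 and 25.8 in Ythdf2-/- against 291, 334 and 95.7 in Ythdf2+/- libraries. Summed oocyte markers ran 6738 and 6756 against 4275, 2173 and 4237. Their part in these values was not tested. Within the first set, where the Ythdf2-/- arm is 1 library, 1 of 19 tested members was called higher and 3.53% of all tested genes were. This was the H3 gene Hist1h3g, from 50 counts in 1 Ythdf2-/- library beside 3 and 0 in the Ythdf2+/- libraries of the set.

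The other members of these oocytes also varied between libraries of a group. Hist1h2aa was at 8.62 and 4.26 CPM in the Ythdf2-/- libraries and 5.93, 4.43 and 10.9 in the Ythdf2+/- libraries, and Hist1h1a at 5.21 and 11.6 against 7.73, 4.91 and 20.1. Both overlapped. Hist1h1e was at 3.35 and 3.26 against 1.94, 1.64 and 1.22 and did not overlap, with a log2 fold change of 1.04 ± 0.67 (SE; adjusted p = 0.848, edgeR). Groups did not overlap for 4 of the 15 tested members and for 2944 of all 13910 tested genes. None of the 20 processing factors tested was called, with log2 fold changes of -0.89 for Slbp, 0.45 for Npat and 0.05 for Lsm11. None of the 11 solitary histone genes, 13 histone chaperone genes and 24 DNA replication genes tested was called either. The libraries of the solitary histone gene H2afx did not overlap, at 50.8 ± 4.44 (SD, n = 2) CPM in Ythdf2-/- and 7.75 ± 3.19 (SD, n = 3) in Ythdf2+/- oocytes (log2 fold change 2.71 ± 0.50 (SE), adjusted p = 0.592, edgeR). Hist1h2ba, listed at 1.08 and 0.853 against 0.257, 0.750 and 0.916, was not called (0.60, adjusted p = 0.867).

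In round spermatids 1 of 20 tested members was lower in the Ythdf2-/- libraries (5%), where 2.64% of all tested genes were called lower, and none was higher. The median log2 fold change was 0.33 over the members and 0.08 over all tested genes. The member called lower was Hist1h2bc, at 1.06 and 0.217 CPM in the Ythdf2-/- libraries and 5.47 in the Ythdf2+/+ library, from 20 and 5 counts against 171 (log2 fold change -3.12 ± 0.74 (SE), adjusted p = 0.00364, edgeR). The single Ythdf2+/+ library sets this difference, and DESeq2 did not call it (adjusted p = 0.106). Summed markers of spermatocytes, the cells that precede spermatids, were at 570 and 450 CPM in the Ythdf2-/- libraries and 795 in the Ythdf2+/+ library, while those of round spermatids were at 13361 and 9011 against 7854. The part of earlier germ cells in the result was not tested.

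The 6 members that led in spermatids did not pass the test. Hist1h2bp, the most abundant, was at 38.1 and 53.7 CPM in the Ythdf2-/- libraries, on either side of the 46.3 in the Ythdf2+/+ library. Hist1h1t was at 14.5 and 7.37 against 8.15 (log2 fold change 0.42, adjusted p = 0.683, edgeR), and Hist1h2ba, which encodes the testis H2B variant, at 9.20 and 6.29 against 6.58 (0.23, adjusted p = 0.859). Hist1h2aa was at 3.01 and 1.60 against 2.30. For these 4 genes the Ythdf2-/- values enclosed that of Ythdf2+/+. The H4 gene Hist1h4a was at 7.14 and 10.2 against 5.21 (log2 fold change 0.74, adjusted p = 0.435, edgeR), with both Ythdf2-/- libraries above, and the H2B gene Hist2h2be at 12.2 and 11.5 against 18.2 (-0.62, adjusted p = 0.405), with both under. The single Ythdf2+/+ library has no measured spread of its own, so the errors and adjusted p given here assume that it would vary like the Ythdf2-/- pair. Of all tested genes 2.25% were called higher and 2.64% lower, and the summed spermatocyte markers given above, of which 2 of 5 were called lower, stand beside the following lists too, and their part in them was not tested. Among the 12 solitary histone genes tested, the spermatid linker histone genes Hils1 (0.90 ± 0.25 (SE), adjusted p = 0.0163, edgeR) and H1fnt (0.79 ± 0.24, adjusted p = 0.0335) were higher. Of the 13 histone chaperone genes Nap1l1 (-2.11 ± 0.24, adjusted p = 6.33e-12), Nap1l4 (-1.11) and Nasp (-0.81) were lower, and Srrt (-0.95 ± 0.25, adjusted p = 0.00889) was the single processing factor called, of 19 tested, with Slbp at -0.56 (adjusted p = 0.192) and Npat at -0.30 (adjusted p = 0.651) not called. Of 23 DNA replication genes 2 were lower, the ribonucleotide reductase subunit gene Rrm1 (-1.22) and the helicase subunit gene Mcm6 (-1.67).

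Few members were called in more than 1 comparison. Hist1h2bg and Hist1h4d were higher in Ythdf3-/-, triple knockout and Mettl3-/- stem cells, which share the WT libraries. Hist1h2bc was higher in Mettl3 conditional knockout GV oocytes and lower in Ythdf2-/- spermatids, and was not called in any stem cell comparison. Hist1h1b was higher in Mettl3-/- stem cells and lower in the conditional knockout GV oocytes, where controls 2 and 3 carried it. Whether effects differ between the cell types was not tested.

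**Figure D5:**
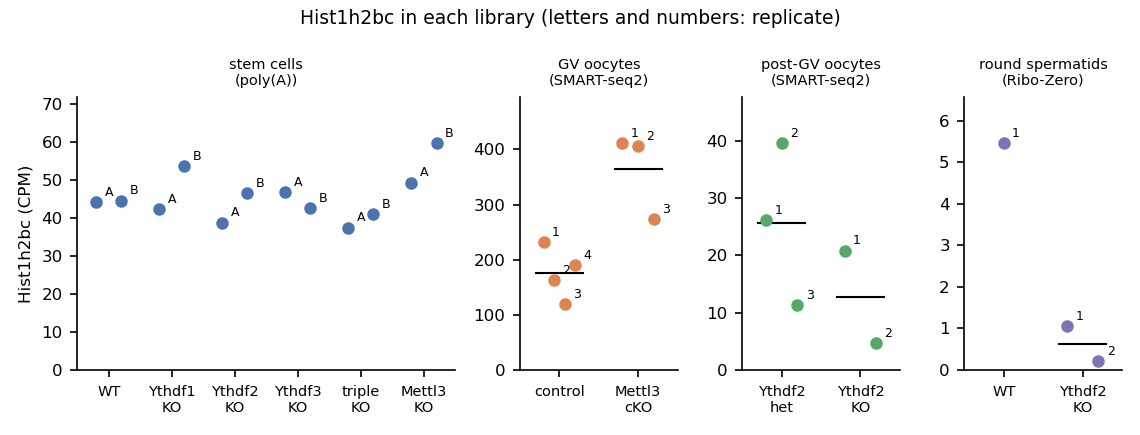
Level (CPM) of Hist1h2bc in every library, by experiment and genotype, each experiment with its own axis from 0; points are libraries and lines are means of groups with replicates, not drawn for stem cells. Libraries of the conditional knockout GV oocytes (274 to 412) lie above their controls (120 to 232), and both Ythdf2-/- spermatid libraries (1.06 and 0.217) lie under the Ythdf2+/+ library (5.47).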

How the data were processed

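Raw counts per gene symbol were used as the authors deposited them, in tables of stem cells, GV oocytes, post-GV oocytes and round spermatids (27 libraries in 12 groups). Per the submitters' processing notes, CASAVA 1.8.2, cutadapt, STAR 2.4.2a, DESeq2 and build mm10 were used; for the counter, the annotation and duplicates nothing is given in the sources used here. For post-GV oocytes the authors also deposited normalised values, a signal of counts over size factors, and log2 values after a batch adjustment; the difference between both was used only to see which libraries the adjustment shifted together.

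Each knockout was compared with its own controls by edgeR 4.0.16 (TMM, filterByExpr, robust quasi-likelihood fit, R 4.3.3) over all genes of its table, with Benjamini-Hochberg adjustment and a threshold of 0.05. Stem cell groups shared 1 fit, in which libraries A and B entered as replicates. A standard error is the larger of the fitted and the counting error, since stem cell replicates agreed within sampling noise. Shares are member counts over all assigned counts, with exact binomial intervals. Annotation and sequences came from GENCODE M21. Scripts were tested on simulated data. DESeq2 1.42.0, a filter at 5 CPM, other scalings, a replicate block and leaving out libraries were alternatives. Members named are up to 10 called in each direction of a comparison by smallest p, the 6 leading an experiment per kilobase, the germ line genes Hist1h1t, Hist1h2aa and Hist1h2ba, and those called in 2 or more comparisons; of the partner lists (processing factors, solitary histones, chaperones, DNA replication), up to 4 called by smallest p, with Slbp, Npat and Lsm11. Other members named (Hist1h4d in GV oocytes without 2 controls, Hist1h3g, Hist1h1e, H2afx) were chosen after their values were seen. Members and gene lists were chosen with earlier results of these data known.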

Additional observations from a re-analysis of the deposited data

Results flagged for a closer look

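Hist1h1e had opposite directions in the cells labelled Ythdf2 knockout of 2 experiments, with every library on its side. In post-GV oocytes both Ythdf2-/- libraries (3.35 and 3.26 CPM) were above all 3 Ythdf2+/- libraries (1.94, 1.64 and 1.22), a log2 fold change of 1.04, and in stem cells both Ythdf2-/- libraries (36.2 and 41.9) were under both WT libraries (47.8 and 45.5), a log2 fold change of -0.25. Neither was called by edgeR's quasi-likelihood test, and the difference between the experiments was not tested. The gene was found by a search of the members for opposite changes without overlap. Such separation was common: 5530 of 11951 tested genes did not overlap between Ythdf2-/- and WT stem cell libraries. In post-GV oocytes 2944 of 13910 tested genes did not overlap. The stem cell values rest on 28 and 36 counts against 53 and 51. Of the 11 values examined in the 4 GV oocyte controls, none had a library beyond Dixon's 95% limit. That limit is for 1 outlying library, so it can miss controls 2 and 3 where both are high, as for Hist1h1b and Hist1h2ae.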

How the results depend on the processing

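Of the 23 calls of single members, 4 were made under every alternative run for them (Hist1h2bg in triple knockout and Mettl3-/- stem cells, Hist1h4d in Mettl3-/- stem cells and Hist1h1c in GV oocytes), 8 were made by DESeq2, and none changed sign. Over all of them 166 of 235 alternatives kept the call. With DESeq2, 0 members were called higher in Ythdf3-/-, 1 higher and 0 lower in triple knockout, and 2 higher and 0 lower in Mettl3-/- stem cells, and 0 lower in spermatids. With the filter at 5 CPM, 1 member was higher and 0 lower of the 4 left in GV oocytes, and 0 lower in spermatids, where fewer members were tested. Leaving controls 2 and 3 aside gave 0 lower in GV oocytes, and leaving Hist1h2bc aside turned the log2 ratio of the share there to -0.10. Within the first set of post-GV libraries 1 member was higher. With TMM library sizes the log2 ratio of the spermatid share was 0.012. The cause of these shifts was not tested except where fewer genes or samples are named.

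Leaving out 1 library at a time gave 0 to 1 members higher in Ythdf1-/- and 0 to 1 lower in Ythdf2-/-, 0 to 2 higher and 0 to 1 lower in Ythdf3-/-, 2 to 3 higher and 1 to 2 lower in triple knockout, and 3 to 7 higher and 0 to 0 lower in Mettl3-/- stem cells. It gave 1 to 3 higher and 0 to 2 lower in GV oocytes, and a log2 ratio of the share of -1.11 to -0.023 in post-GV oocytes. A lone library is assumed to vary like the other groups. In spermatids the counts of calls were not run this way, since no residual degree of freedom is left.

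Libraries with the same replicate letter or number did not deviate together in every pair (residual correlation of stem cell pairs -0.00097 to 0.0473, of GV oocyte pairs 0.0919 to 0.417, and of post-GV oocyte pairs -0.606 and 0.432). With a replicate block 8 members were higher and 1 lower in Mettl3-/- stem cells, and 3 higher and 2 lower in GV oocytes. In Ythdf3-/- cells 2 were higher and in triple knockout cells 3 higher and 2 lower, and none was called in the other comparisons run. In stem cells the depth sets the counting errors, which are the only errors there. A batch named in the files was not run, since none is named there. Leaving controls 2 and 3 aside, leaving Hist1h2bc aside and the split of post-GV libraries were chosen after seeing the data.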
